A study of Homo sapiens with 12 samples.

Results

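The direct comparison of TCDD with kynurenine rests on 3 libraries of DLD1 cells given TCDD and 3 given kynurenine (Kyn), 6 of the 12 libraries of the series. They were chosen by their treatment labels alone, and no DMSO library entered the contrast. DLD1 is an established human colorectal cancer cell line. Per the labels, each compound was given at 10 µM for 1 h, so both agonists were compared at the same molar dose and time. The series also holds 3 libraries of cells given DMSO, the vehicle, and 3 of cells given CH223191 (CH), an antagonist of the aryl hydrocarbon receptor (AHR). In the text the DMSO libraries show, with no test, the level of a gene without either agonist. Levels with CH223191 are shown in the figures only. Both groups also enter the scaling factors, which were computed over all 12 libraries. Poly(A) RNA was sequenced and the reads were counted per gene. Nothing in the labels says that replicate libraries are separate cultures. The p-values therefore measure the spread between these libraries, which may be technical.

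AHR is a transcription factor that waits in the cytoplasm with the chaperone HSP90 and its partner PTGES3. When it binds a ligand it moves to the nucleus, pairs with ARNT and binds response elements with the core GCGTG. It then raises genes of foreign-compound metabolism, the CYP1 enzymes above all, and with them its own brakes, the repressor AHRR and the ADP-ribosyltransferase TIPARP. TCDD is a chlorinated dioxin that binds AHR tightly and is broken down slowly, whereas kynurenine is a natural product of tryptophan breakdown and a weak AHR agonist. In the gut lining AHR is known for its part in barrier function and in the handling of dietary and microbial compounds.

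The largest differences lay in the classical AHR response, which was higher with TCDD. CYP1A1 was 42.0-fold, CYP1B1 6.59-fold, AHRR 4.50-fold and TIPARP 3.80-fold higher with TCDD than with kynurenine. Lower with TCDD were, at smaller size, chemokines (CXCL1, CXCL2, CXCL3 and CCL20), the cytokine brake SOCS2 and MYC. The prototype AHR target NQO1 did not pass the test, and neither did the receptor AHR itself in the fit reported here.

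To show where the classical response and the chemokines stand in the genome, the 250 bases before the start of 5 genes that were higher with TCDD are printed 5′ to 3′ on the gene's strand, from RefSeq on GRCh38.p14. They are CYP1A1 (chr15:74725529-74725778, minus strand), AHRR (chr5:321464-321713, plus strand), TIPARP (chr3:156674340-156674589, plus strand), ALDH1A3 (chr15:100879581-100879830, plus strand) and ADGRF1 (chr6:47042333-47042582, minus strand). Capitals mark the AHR core GCGTG, searched on both strands, so that a match on the other strand reads CACGC.
CYP1A1: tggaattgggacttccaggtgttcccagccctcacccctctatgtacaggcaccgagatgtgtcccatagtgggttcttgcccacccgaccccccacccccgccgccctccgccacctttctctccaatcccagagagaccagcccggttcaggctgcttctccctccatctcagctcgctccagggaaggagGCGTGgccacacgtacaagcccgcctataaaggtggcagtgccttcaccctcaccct
AHRR: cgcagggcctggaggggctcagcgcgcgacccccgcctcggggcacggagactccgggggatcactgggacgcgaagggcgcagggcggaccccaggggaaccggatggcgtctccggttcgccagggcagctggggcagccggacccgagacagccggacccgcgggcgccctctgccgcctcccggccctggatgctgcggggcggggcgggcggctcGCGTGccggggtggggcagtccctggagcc
TIPARP: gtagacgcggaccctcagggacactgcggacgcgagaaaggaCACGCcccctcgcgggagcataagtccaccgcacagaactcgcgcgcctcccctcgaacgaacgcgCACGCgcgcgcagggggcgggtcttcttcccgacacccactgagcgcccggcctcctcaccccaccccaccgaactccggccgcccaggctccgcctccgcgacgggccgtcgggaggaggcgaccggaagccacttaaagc
ALDH1A3: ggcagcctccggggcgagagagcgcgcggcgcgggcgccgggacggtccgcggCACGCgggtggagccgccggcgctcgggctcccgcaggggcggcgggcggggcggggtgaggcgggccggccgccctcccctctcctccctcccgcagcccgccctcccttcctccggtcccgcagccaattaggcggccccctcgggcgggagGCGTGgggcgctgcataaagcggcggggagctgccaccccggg
ADGRF1: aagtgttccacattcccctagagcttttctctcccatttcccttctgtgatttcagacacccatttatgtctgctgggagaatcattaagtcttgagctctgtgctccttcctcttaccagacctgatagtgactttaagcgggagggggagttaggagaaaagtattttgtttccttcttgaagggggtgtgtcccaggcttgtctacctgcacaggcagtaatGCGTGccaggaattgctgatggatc

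The core began 57 bases before the start in CYP1A1 and 30 bases before it in the window of AHRR shown. Another window of AHRR held it 247 and 42 bases before its start. It lay 197 and 43 bases before the start in ALDH1A3, 25 in ADGRF1, and 208 and 142 in the window of TIPARP shown, while the 2 other windows of TIPARP held none. The window of CYP1A2 held none either. The windows printed were chosen among those that hold the core. A 5-letter core is common, and it stood in 32.2% of all 35116 windows of this length. Among tested genes with a window, 53.5% of 9802 held it in at least 1 window, against 52.0% of the 485 called higher with TCDD and 55.3% of the 468 called lower. Of the 15 genes with the largest rise 11 had a window, and 8 of these held the core. Of the 15 with the largest fall 12 had a window, and 4 held it.

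A second set shows 4 chemokines from the 15 largest falls with TCDD, again as the 250 bases before the start. They are CXCL1 (chr4:73869143-73869392, plus strand), CXCL2 (chr4:74099196-74099445, minus strand), CXCL3 (chr4:74038690-74038939, minus strand) and CCL20 (chr2:227813592-227813841, plus strand). Capitals mark a form of the NF-kB motif, read as GGG, then 2 bases of any kind, then TTTCC, and searched on both strands.
CXCL1: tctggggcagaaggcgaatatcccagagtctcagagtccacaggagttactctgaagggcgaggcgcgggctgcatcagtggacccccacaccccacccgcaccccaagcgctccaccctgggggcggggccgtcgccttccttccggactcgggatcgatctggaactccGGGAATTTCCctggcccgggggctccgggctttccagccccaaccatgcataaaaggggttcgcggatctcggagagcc
CXCL2: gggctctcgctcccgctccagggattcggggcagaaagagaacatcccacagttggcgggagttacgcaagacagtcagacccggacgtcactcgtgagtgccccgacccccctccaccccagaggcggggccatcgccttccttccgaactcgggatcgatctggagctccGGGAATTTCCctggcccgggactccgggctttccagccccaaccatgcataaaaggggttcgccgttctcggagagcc
CXCL3: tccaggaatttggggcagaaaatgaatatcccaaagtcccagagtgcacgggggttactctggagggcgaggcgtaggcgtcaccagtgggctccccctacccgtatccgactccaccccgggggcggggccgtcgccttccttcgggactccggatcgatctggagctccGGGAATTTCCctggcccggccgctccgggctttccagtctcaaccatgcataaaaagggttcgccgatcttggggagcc
CCL20: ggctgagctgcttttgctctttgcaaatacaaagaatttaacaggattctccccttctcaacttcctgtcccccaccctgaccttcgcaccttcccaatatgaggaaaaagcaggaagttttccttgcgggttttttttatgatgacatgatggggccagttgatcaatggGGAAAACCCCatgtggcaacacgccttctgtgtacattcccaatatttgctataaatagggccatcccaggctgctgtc

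The match began 79, 78 and 79 bases before the start of CXCL1, CXCL2 and CXCL3, and 79 bases before that of CCL20, there on the other strand. This motif stood in 1.73% of all windows and in at least 1 window of 2.69% of the 9802 tested genes that had one. It was found in 2.68% of genes called higher and 3.85% of those called lower with TCDD. The 4 chemokines were the 4 matches among the 12 genes with a window of the largest falls, and there were 0 among the 11 of the largest rises. These counts are no test of enrichment, since the search was made with earlier results of these data known. CXCL1, CXCL2 and CXCL3 are also near copies of each other, so their matches are not independent. A match describes letters in a window and does not show that a factor binds there.

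Depth was close to even but did not overlap between the groups. The TCDD libraries held 22834076 to 24726740 counted reads and the kynurenine libraries 24908227 to 28247146. In the 6 libraries 16675 to 16832 of 26485 gene symbols had a count. The first principal component, 34.6% of the variance, put the TCDD libraries at 7.57 to 13.0 and the kynurenine libraries at -13.6 to -7.62. Kynurenine replicate 1 stood apart from its group. Its counts differed from those of replicates 2 and 3 by 4.65 and 4.61 times Poisson variance, against 1.76 between the other two and 2.24 to 2.704 within TCDD. Mapping also differed by group without overlap. Reads aligned to several places made up 3.27 to 3.91% with TCDD and 2.88 to 3.07% with kynurenine, and unaligned reads 9.50 to 10.0% and 8.52 to 9.14%. Their part in the results was not tested. Of 9 colon epithelial markers 7 passed the filter on low counts, with KRT8, KRT18, EPCAM and CDH1 abundant and CDX1 and LGALS4 near 0. Their summed level was 8334 to 8512 CPM (read counts scaled to a common library total) with TCDD and 9076 to 9367 CPM with kynurenine. Markers of other cells were low in both groups. Fibroblast markers summed to 0.347 to 0.731 CPM with TCDD and 0.444 to 0.572 CPM with kynurenine. Immune markers summed to 9.67 to 15.7 and 6.95 to 17.0 CPM, mostly LYZ and CD68, and endothelial markers to 6.32 to 7.80 and 6.36 to 7.23 CPM. In the fibroblast and the endothelial list 3 genes each had 0 reads in all 6 libraries. Of the 9 tested members of these 3 lists 0 were called, and without kynurenine replicate 1 the immune genes CD14 and LYZ were called higher with TCDD, LYZ also with the replicate block.

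Over all genes, edgeR's quasi-likelihood test with Benjamini-Hochberg adjustment called 1279 of 13222 tested genes at an adjusted p under 0.05, or 9.67%. The median log2 fold change over all genes was -0.005. The share called and the median of each list of genes are to be read against these 2 values. Of these, 637 were higher with TCDD (4.82% of those tested) and 642 lower (4.86%). Most differences were small. The median called gene was 1.19-fold higher or 1.13-fold lower, and 886 of the 1279 differed by under 1.2-fold. Among the 79 called genes that differed by at least 1.5-fold (0.597% of those tested), 73 were higher with TCDD and 6 lower. Those 6 were LOC100507412, LIPC, HSD3B1, LYPD3, LPP-AS2 and OSR1, and the first 3 averaged under 1 CPM. So the 2 directions were even in number but not in size, as the plot of fold change against level shows. The groups did not overlap in 1215 of the called genes, against 26.8% of all genes tested. Without TCDD replicate 3 the test called 556 genes, without TCDD replicate 1 it called 843, and without kynurenine replicate 1, the library that stood apart, it called 920.

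**Figure D1:**
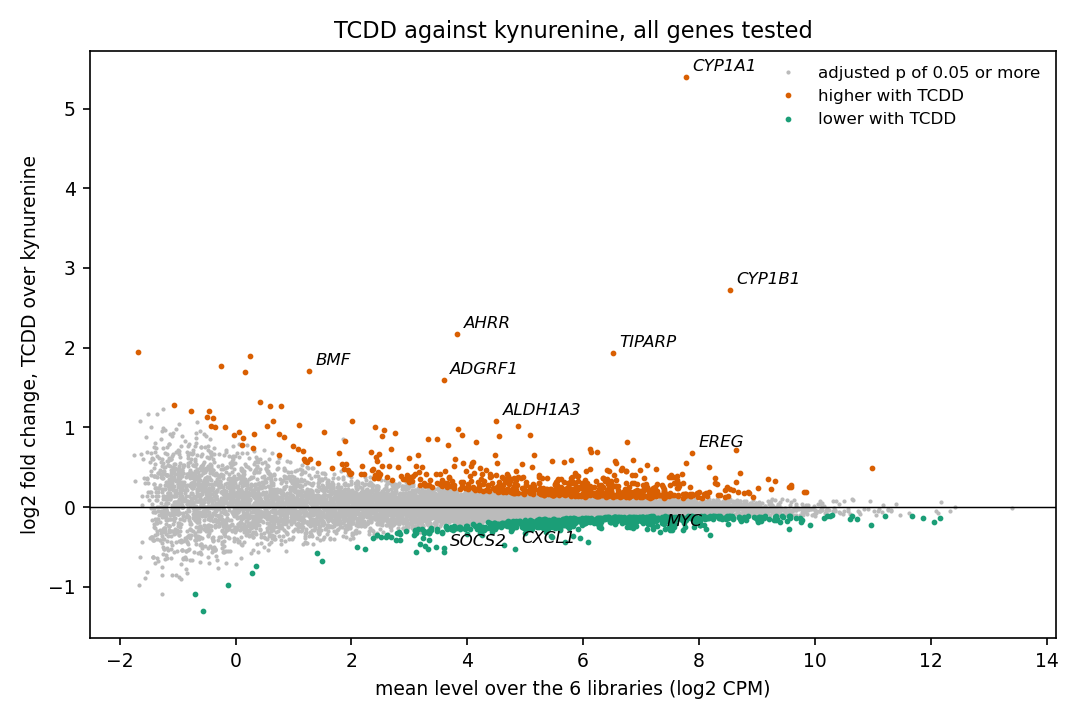
Log2 fold change of TCDD over kynurenine (vertical) against the mean level over the 6 libraries in log2 CPM (horizontal) for 13222 genes. Each point is 1 gene, orange if called higher and green if called lower with TCDD at an adjusted p under 0.05. The rises reach 5.39 at CYP1A1, while called falls lie between -1.31 and -0.10.

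Called genes differed in length and base composition. Both were taken from the longest annotated transcript of a gene, which need not be the one these cells make. Of 13222 tested genes 12192 had these values. The median length was 7235 bases for genes higher with TCDD, 2668 bases for genes lower and 3839 bases for all tested. Median GC content was 43.7%, 57.2% and 48.0%. In another fit, the trend of each library's deviation from the mean of the 6 libraries over GC and length was removed. Genes without these values stayed uncorrected in it. There 440 genes were called higher and 723 lower, so the share higher went from 49.8% to 37.8%. Of the 1279 genes, 817 were called in both fits. Scaling by library totals alone gave 706 higher and 419 lower, or 62.8% higher. Of the 79 genes past 1.5-fold, 76 were called with the GC and length trends removed, and 39 in DESeq2, which gave 39 of the others no adjusted p.

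The DMSO level of a called gene was usually closer to the kynurenine level. Its mean lay nearer to the kynurenine mean than to the TCDD mean for 1149 of the 1279 called genes (89.8%), against 66.4% of all tested. It lay between both for 805, beyond kynurenine for 471 and beyond TCDD for 3. These are counts of positions, with no test of either agonist against DMSO.

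Among the enzymes of the AHR response, CYP1A1 (chr15:74719542-74725536 in hg38), a monooxygenase that oxidises polycyclic aromatic compounds, showed the widest difference. Its level was 434, 436 and 409 CPM in the 3 TCDD libraries and 9.19, 11.2 and 10.1 CPM with kynurenine. The groups lay far apart, and the log2 fold change was 5.39 ± 0.05 (SE, n = 3 per group, edgeR adjusted p = 1.7e-44). DMSO libraries averaged 3.22 CPM, so the kynurenine mean was above the vehicle mean for this gene.

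CYP1B1 (chr2:38066973-38109902), a monooxygenase that also acts on steroid hormones, was at 649, 645 and 638 CPM with TCDD. With kynurenine it was at 93.2, 102 and 98.4 CPM. The log2 fold change was 2.72 ± 0.04 (SE, edgeR adjusted p = 9.3e-39). Its kynurenine mean of 97.7 CPM lay under the DMSO mean of 126 CPM. Its antisense neighbour CYP1B1-AS1, at 1.30 and 0.379 CPM, was 3.42-fold higher with TCDD. No source states whether reads were counted by strand. Reads of CYP1B1 may therefore have been counted for CYP1B1-AS1 or the reverse, or left out as ambiguous.

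CYP1A2, the third CYP1 enzyme and a metaboliser of caffeine and aromatic amines, was scarce. It was at 2.03, 2.43 and 2.83 CPM with TCDD and at 0.930, 1.05 and 1.05 CPM with kynurenine, with no overlap. The log2 fold change was 1.27 ± 0.21 (SE, edgeR adjusted p = 4.2e-05), and DMSO averaged 0.392 CPM. CYP1A1 and CYP1A2 are close copies, so a part of the reads cannot be placed with certainty.

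The feedback repressors followed. AHRR (chr5:321714-438291), which competes with AHR for ARNT, was at 21.98, 24.8 and 23.0 CPM with TCDD and at 4.68, 5.88 and 4.93 CPM with kynurenine. TIPARP (chr3:156673235-156706770), which marks AHR by ADP-ribosylation and limits its activity, was at 150.4, 139 and 145 CPM with TCDD and at 36.6, 37.9 and 39.7 CPM with kynurenine. Neither gene's groups overlapped. The log2 fold change was 2.17 ± 0.09 for AHRR (edgeR adjusted p = 3.2e-22) and 1.93 ± 0.05 for TIPARP (1.2e-30). The DMSO means, 6.25 and 44.03 CPM, were above the kynurenine means of 5.16 and 38.1 CPM.

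These 2 brakes were the only called members of 15 tested in the list of AHR partners and repressors (13.3%, against 9.67% of all genes, median log2 fold change -0.01). The receptor AHR was at 176, 175 and 194 CPM with TCDD and 187, 203 and 190.3 CPM with kynurenine, and the groups overlapped. Its log2 fold change was -0.09 with a 95% interval from -0.17 to -0.01 (edgeR adjusted p = 0.16). AHR was called lower without kynurenine replicate 1 (-0.12, adjusted p = 0.037) and with GC and length trends removed (-0.16, adjusted p = 0.0013), where 2 genes of the list were called lower. ARNT, its DNA-binding partner, had a log2 fold change of -0.04 with an interval from -0.15 to 0.06 (adjusted p = 0.68).

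**Figure D2:**
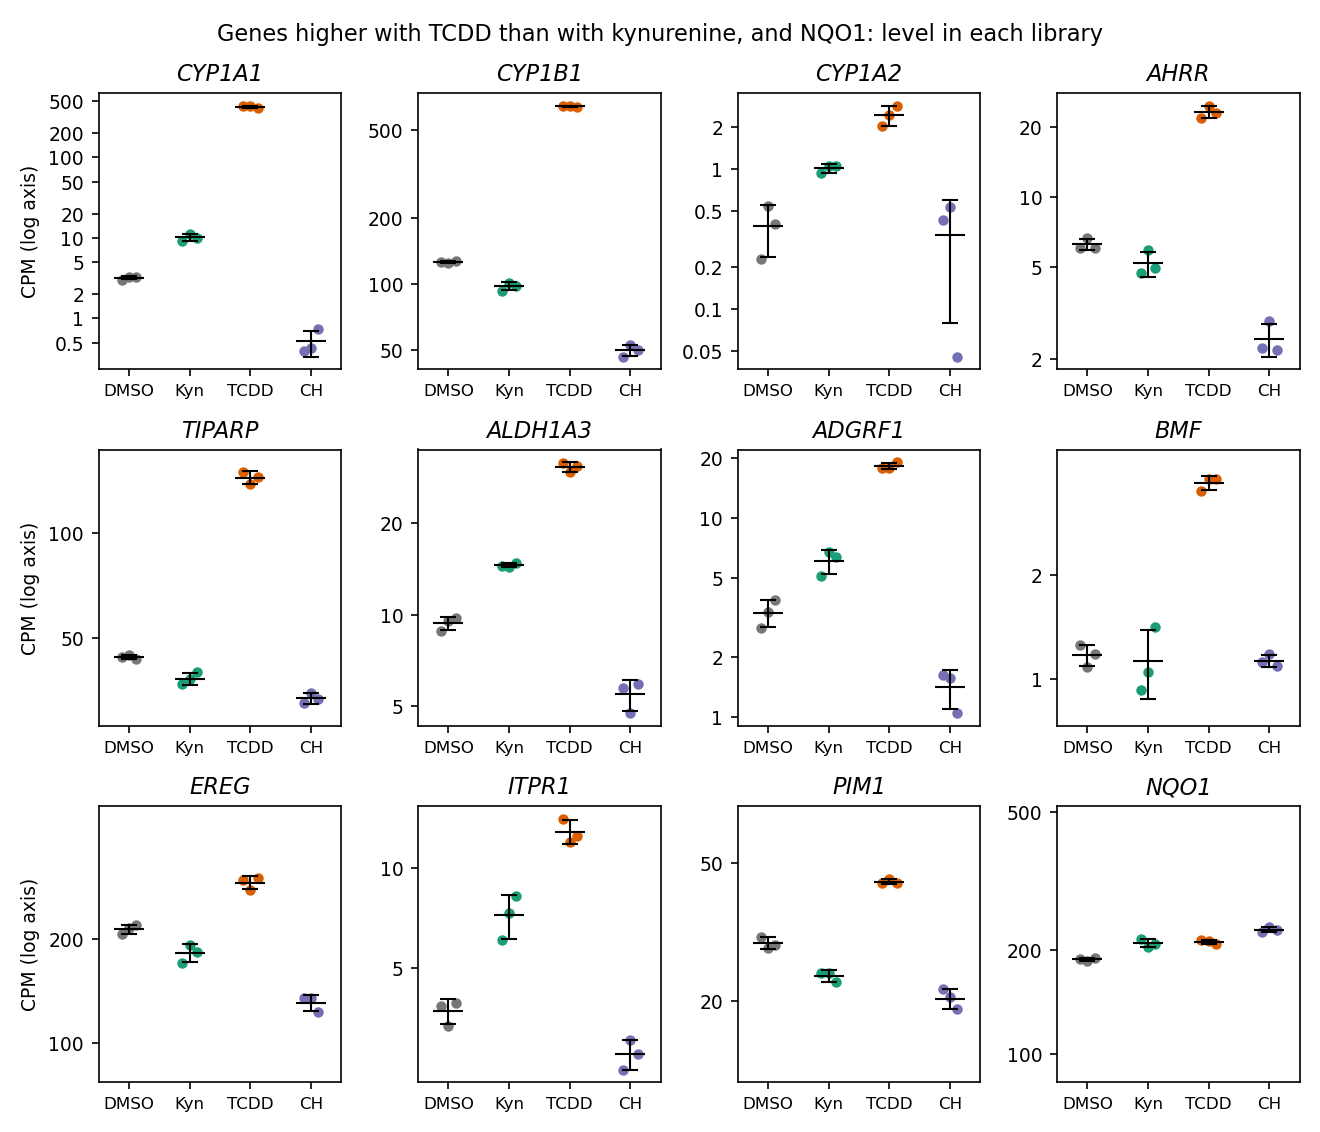
Level in CPM (vertical, log axis, each panel with its own range) of 12 genes in the 12 libraries, by group (horizontal; Kyn is kynurenine, CH is CH223191). Points are libraries, and black bars are the mean and SD of 3 libraries. TCDD stands above kynurenine in 11 genes without overlap, while NQO1 averaged 211 CPM with TCDD and 209 CPM with kynurenine.

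Enzymes of aldehyde oxidation are also listed AHR targets. ALDH1A3 (chr15:100877714-100916626), which makes retinoic acid, was at 31.7, 29.5 and 31.0 CPM with TCDD. With kynurenine it was at 14.5, 14.3 and 14.8 CPM, above the DMSO mean of 9.34 CPM. It was 2.11-fold higher with TCDD (edgeR adjusted p = 1.1e-16). ALDH3A1, which clears reactive aldehydes, was at 120.3, 125 and 118 CPM with TCDD and 105, 98.2 and 100.2 CPM with kynurenine, a 1.19-fold difference (adjusted p = 1.7e-05). No other member of the 14 tested aldehyde dehydrogenases was called (14.3%, median 0.00).

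ABCG2, an efflux pump for drugs and urate, was at 8.08, 7.73 and 8.57 CPM with TCDD and at 4.97, 6.33 and 6.02 CPM with kynurenine. It was 1.41-fold higher with TCDD (edgeR adjusted p = 0.0014) and was the 1 called gene of 28 tested ABC transporters (3.57%, median 0.00). NEDD9, a scaffold of cell adhesion signalling, averaged 92.9 and 57.7 CPM (1.61-fold, adjusted p = 2.2e-14), and NFE2L2, which encodes the antioxidant factor NRF2, 221 and 179 CPM (1.23-fold, adjusted p = 1.2e-07).

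Of 31 listed AHR targets 24 passed the filter, and 12 were called higher and 2 lower with TCDD (58.3% called, against 9.67% of all genes). Their median log2 fold change was 0.28, against -0.005 over all genes. The 2 lower were JUP, a junction protein, and the monooxygenase CYP2S1, with log2 fold changes of -0.13 and -0.17. Without TCDD replicate 3, or with GC and length trends removed, 0 were called lower. Both calls were also lost without TCDD replicate 2 or kynurenine replicate 3, JUP's also without kynurenine replicate 2 and CYP2S1's in DESeq2. NQO1, a quinone reductase that NRF2 also raises, was at 213, 212 and 207 CPM with TCDD and 215, 204 and 208 CPM with kynurenine, and the groups overlapped. Its log2 fold change was 0.02, with a 95% interval from -0.06 to 0.09 (edgeR adjusted p = 0.85), although its DMSO mean was lower, at 188 CPM. SLC7A5, a carrier that takes up tryptophan and kynurenine, averaged 1489 and 1414 CPM (log2 fold change 0.07, adjusted p = 0.19), and was called higher with GC and length trends removed (0.11, adjusted p = 0.017). Genes of the list near or at 0 CPM, such as IDO1, GSTA1 and SERPINB2, could not be compared.

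In related lists the share called was nearer to that of all genes. Of 21 tested NRF2 targets 1 was called higher and 2 lower (14.3%, median -0.02). SLC7A11, the cystine carrier, rose 1.32-fold, whereas HMOX1, which breaks down haem, was 1.23-fold lower. The HMOX1 call was lost without TCDD replicate 1 or kynurenine replicate 1, in DESeq2 and with GC and length trends removed. Of 15 tested enzymes of tryptophan and kynurenine breakdown, QPRT, of NAD synthesis, was called, 1.10-fold lower with TCDD (edgeR adjusted p = 0.042), which makes 6.67% (median -0.05). That call was lost without TCDD replicate 2 or 3 or kynurenine replicate 1 or 3, in DESeq2 and with GC and length trends removed. Of 22 amino acid transporters 3 were called higher (SLC7A11, SLC7A8 and SLC1A1) and 1 lower (SLC1A5), or 18.2% (median 0.00). SLC1A1 and SLC1A5 each lost the call without TCDD replicate 3 or kynurenine replicate 3, and SLC1A1 also without replicate 1 of either group and in DESeq2. Both calls were lost with GC and length trends removed.

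Beyond the classical targets, the rule of largest change named genes with other roles. ADGRF1 (chr6:46997708-47042350), an adhesion G protein-coupled receptor, was at 17.8, 17.8 and 19.0 CPM with TCDD and at 5.11, 6.70 and 6.34 CPM with kynurenine. Its 3.02-fold difference (edgeR adjusted p = 3.0e-17) came with a DMSO mean of 3.35 CPM, so here both agonist means stood above the vehicle mean. BMF, a pro-death member of the BCL2 family, was at 3.49, 3.78 and 3.77 CPM with TCDD and at 0.930, 1.05 and 1.41 CPM with kynurenine (3.27-fold, adjusted p = 1.0e-08). Its DMSO mean, 1.17 CPM, was at the kynurenine level.

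The other rises of at least 2-fold that the rule named were in scarce transcripts. In all, 27 genes were called at least 2-fold higher with TCDD. Some fell outside the rule, such as UNC5C (3.86-fold, at a mean of 0.312 CPM). OAS2, an antiviral enzyme, was at 2.40, 1.56 and 1.19 CPM with TCDD and at 0.465, 0.637 and 0.485 CPM with kynurenine. The glutamate receptor subunit GRIN2A averaged 1.92 and 0.774 CPM, the phospholipase PLCH1 2.14 and 0.882 CPM, and SRGAP3 5.47 and 2.59 CPM. TLR5, the receptor for bacterial flagellin, averaged 2.13 and 1.01 CPM, and the uncharacterised LOC101927768 1.89 and 0.501 CPM. The histone gene HIST2H2BF averaged 2.84 and 1.41 CPM. All 15 of these largest rises, CYP1A1 to HIST2H2BF, were called with each library left out in turn.

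ITPR1 and PIM1 were also higher with TCDD. ITPR1, a calcium release channel of the endoplasmic reticulum, was at 14.1, 12.03 and 12.5 CPM with TCDD and at 6.04, 7.30 and 8.24 CPM with kynurenine (1.80-fold, edgeR adjusted p = 2.0e-08). Its DMSO mean was 3.69 CPM, below both. Of 20 tested genes of calcium release and entry, ITPR2 (1.22-fold) and ATP2A2, the calcium pump (1.14-fold), were the other called members (15%, median 0.04). PIM1, a survival kinase that cytokines raise, was at 43.8, 45.1 and 43.8 CPM with TCDD and at 24.2, 24.2 and 22.7 CPM with kynurenine. It was 1.87-fold higher with TCDD (adjusted p = 1.7e-16), and its DMSO mean of 29.4 CPM lay between the groups.

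In the list of cytokine feedback genes, 4 of 17 tested were called higher and 1 lower (29.4%, median 0.03). BCL6, a transcriptional repressor, averaged 20.4 and 13.8 CPM (1.48-fold, edgeR adjusted p = 7.3e-08). The receptor subunit IL6ST and SOCS4 were called at log2 fold changes of 0.15 and 0.16, and IL6ST lost the call without TCDD replicate 1 or 3 or kynurenine replicate 1. SOCS4 lost it without TCDD replicate 1 or 3 or kynurenine replicate 3 and in DESeq2. With GC and length trends removed both were lost, and the log2 fold change of IL6ST was 0.06. SOCS2, a brake on growth hormone and cytokine signalling, went the other way. It was at 10.2, 9.46 and 9.56 CPM with TCDD and at 15.3, 14.5 and 13.6 CPM with kynurenine (1.48-fold lower, adjusted p = 2.0e-06), with no overlap. Its DMSO mean, 14.7 CPM, was at the kynurenine level.

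The EGF receptor ligand EREG (epiregulin) was at 296, 276 and 299 CPM with TCDD and at 171, 192 and 183 CPM with kynurenine, with a DMSO mean of 213 CPM between the groups. It was 1.597-fold higher with TCDD (edgeR adjusted p = 2.5e-16). Of 10 tested genes of the family 4 were called, all higher (40%, median 0.09). The receptor EGFR had a log2 fold change of 0.21, and the ligands AREG (amphiregulin) and TGFA of 0.18 and 0.13. AREG and TGFA lost their calls without TCDD replicate 1 or 3, AREG also without kynurenine replicate 1 and TGFA without kynurenine replicate 3. The receptors ERBB2 and ERBB3 and the ligand HBEGF had log2 fold changes of -0.04, 0.00 and 0.02.

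Inflammatory genes split. Of 26 tested NF-kB and inflammatory genes 5 were called higher and 7 lower with TCDD (46.2%, against 9.67% of all genes), and the median log2 fold change was -0.08. CXCL1 (chr4:73869393-73871308), which draws neutrophils, was at 20.9, 23.6 and 24.8 CPM with TCDD and at 32.9, 32.5 and 34.5 CPM with kynurenine. It was 1.44-fold lower with TCDD (edgeR adjusted p = 2.1e-08), with no overlap and a DMSO mean of 33.8 CPM. Its neighbour CXCL3 was at 21.9, 20.6 and 19.5 CPM and at 28.0, 28.1 and 30.4 CPM, 1.39-fold lower with TCDD (adjusted p = 3.3e-07).

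CXCL2 was at 7.39, 8.34 and 7.05 CPM with TCDD and at 10.3, 10.9 and 10.3 CPM with kynurenine (1.38-fold lower, edgeR adjusted p = 4.4e-04). CCL20, which draws dendritic and T cells, was at 5.65, 7.21 and 8.08 CPM and at 10.1, 10.2 and 10.6 CPM (1.48-fold lower, adjusted p = 1.2e-04). All 4 chemokines kept their calls with each library left out. CXCL5, CXCL8 and IL18 were called with smaller log2 fold changes of -0.15, -0.19 and -0.16. The IL18 call was lost with any library left out, and that of CXCL5 without TCDD replicate 2. CXCL1, CXCL2 and CXCL3 are near copies of each other, so some of their reads may be misplaced, or left out as aligned to several places.

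Other genes of the list rose. The cytokine LIF was 1.29-fold, the ubiquitin ligase BIRC3 1.30-fold and the NF-kB subunit REL 1.29-fold higher with TCDD, and BCL3 1.17-fold. The BCL3 call was lost without TCDD replicate 1 or 3 or kynurenine replicate 2 or 3 and in DESeq2. CCL2, which draws monocytes, averaged 3.79 and 1.97 CPM (1.92-fold, edgeR adjusted p = 1.3e-04), with a DMSO mean of 2.75 CPM. The NF-kB inhibitor NFKBIA and the feedback enzyme TNFAIP3 had log2 fold changes of -0.12 and -0.06 and did not pass (adjusted p = 0.078 and 0.59).

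**Figure D3:**
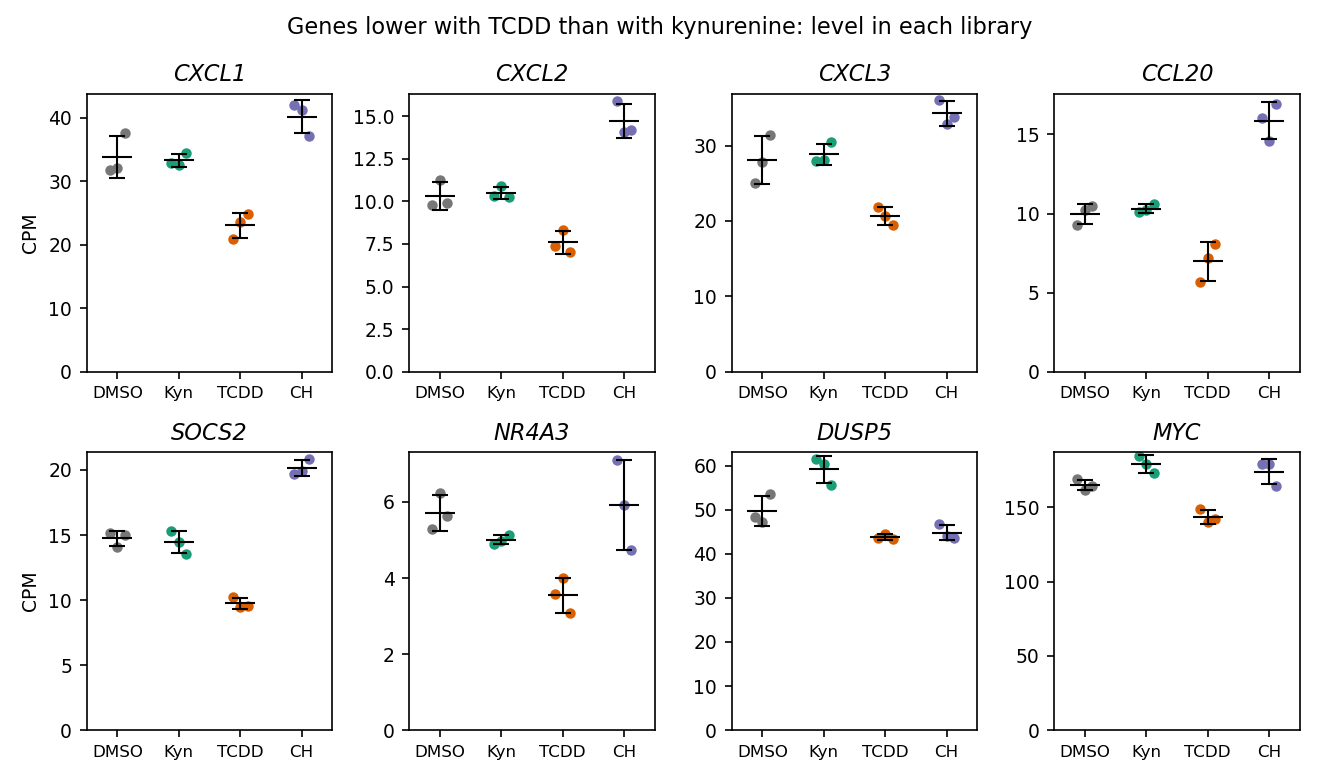
Level in CPM (vertical, from 0) of 8 genes in the 12 libraries, by group (horizontal; Kyn is kynurenine, CH is CH223191). Points are libraries, and black bars are the mean and SD of 3 libraries. TCDD lies below kynurenine in all 8 genes, from 1.48-fold for SOCS2 and CCL20 to 1.25-fold for MYC. The NR4A3 call was lost without TCDD replicate 3.

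The largest falls beyond the chemokines were mostly scarce. LYPD3, a surface protein, averaged 0.871 and 1.56 CPM, the antisense RNA LPP-AS2 0.957 and 1.59 CPM, and the sugar-transporter-like SLC35D3 2.13 and 3.17 CPM. Each of these calls was lost in 4 of the 6 fits that left out a library, with adjusted p up to 0.13, 0.17 and 0.15 in edgeR. LYPD3 lost it without TCDD replicate 2 or 3 or kynurenine replicate 1 or 3, and LPP-AS2 without replicate 1 or 2 of either group. SLC35D3 lost it without TCDD replicate 1 or 3 or kynurenine replicate 2 or 3. OSR1, a zinc finger factor, was at 2.19, 2.08 and 2.21 CPM with TCDD and at 3.54, 3.37 and 3.47 CPM with kynurenine, and kept its call. The growth factor BDNF was at 8.003, 8.47 and 8.20 CPM and at 12.2, 11.5 and 11.8 CPM (1.44-fold lower, adjusted p = 2.4e-05). RASSF10 (1.43-fold), the YAP target ANKRD1 (1.41-fold) and LFNG, which modifies NOTCH (1.40-fold), also held in all 6 fits. IGFL4 (1.44-fold) was lost without kynurenine replicate 1.

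MYC (chr8:127735434-127742951), a driver of growth and a Wnt target, was at 149, 139.96 and 142 CPM with TCDD and at 185, 179 and 173 CPM with kynurenine. It was 1.25-fold lower with TCDD (edgeR adjusted p = 8.5e-08), and its DMSO mean of 165 CPM lay between the groups. Of 21 tested Wnt targets and intestinal stem cell genes 6 were called lower and 1 higher (33.3%, median -0.03), and without TCDD replicate 3 the lower ones were 2. CCND1 (cyclin D1) averaged 811 and 927 CPM, 1.14-fold lower. ASCL2, EPHB3, NKD1 and SP5 were called lower too. Each of these calls was lost without TCDD replicate 1 or TCDD replicate 3, and ASCL2 and SP5 also with GC and length trends removed. EPHB3, NKD1 and SP5 were not called in DESeq2. The 1 gene called higher was LGR5, the intestinal stem cell receptor. It was at 123, 117 and 113 CPM with TCDD and 83.7, 86.7 and 84.1 CPM with kynurenine (1.38-fold higher, adjusted p = 2.3e-11). CDX2, the intestinal identity factor, was higher too, at 159.6, 167 and 158 CPM against 109, 114 and 113 CPM (1.44-fold, adjusted p = 1.3e-13). The keratins KRT18 and KRT8 were 1.17-fold and 1.10-fold lower, and KRT8 lost its call without TCDD replicate 3.

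Among genes of the cell cycle entry, CDK6 was at 111, 111 and 116 CPM with TCDD and at 69.8, 80.8 and 75.2 CPM with kynurenine (1.497-fold, edgeR adjusted p = 6.7e-13). Among CDK inhibitors, CDKN1B (p27), a listed AHR target, was called 1.23-fold higher, and CDKN1C (p57) 1.34-fold lower. Of 21 tested genes of this list 2 were called in each direction (19.0%, median -0.07), in every fit that left out a library.

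Immediate-early genes were mixed. Of 23 tested 2 were called higher and 8 lower (43.5%, median log2 fold change -0.09), and without TCDD replicate 3 the lower ones were 3. IER3, a stress-response gene, was at 177, 180.4 and 178 CPM with TCDD and at 136, 126 and 122 CPM with kynurenine (1.39-fold higher, edgeR adjusted p = 5.5e-12). The 8 lower included the RNA-decay factors ZFP36L1 and ZFP36L2, BTG1, IER2, IER5 and KLF6. Of these IER2, IER5 and KLF6 lost their calls without TCDD replicate 3 and in DESeq2, and each also without 1 or more of the other libraries. BTG1 was 1.21-fold and ZFP36L1 1.17-fold lower. NR4A3, an orphan nuclear receptor, was at 3.57, 3.99 and 3.08 CPM and at 4.90, 4.98 and 5.13 CPM (1.41-fold lower, adjusted p = 0.012), and its call was lost without TCDD replicate 3 and in DESeq2. EGR1, the best known of the list, had a log2 fold change of 0.00 (adjusted p = 0.97).

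In the ERK feedback list, 1 of 18 tested was called higher and 3 lower (22.2%, median -0.07). DUSP5, a nuclear ERK phosphatase, was at 43.5, 44.5 and 43.3 CPM with TCDD and at 61.4, 60.3 and 55.7 CPM with kynurenine (1.35-fold lower, edgeR adjusted p = 9.9e-09). Its DMSO mean was 49.7 CPM, so the kynurenine mean stood above the vehicle mean and the TCDD mean below it. ETV5 and ETV4, factors downstream of ERK, were 1.19-fold and 1.16-fold lower, and ERRFI1, an EGFR inhibitor, 1.18-fold higher. ETV4 lost its call without TCDD replicate 3 or kynurenine replicate 1. DUSP6 and DUSP4 had log2 fold changes of 0.01 and 0.00. Of 12 AP-1 genes, FOSL2 (1.31-fold) and MAFG (1.24-fold) were called higher, and JUN (1.14-fold) and MAFK (1.16-fold) lower (33.3%, median -0.04). The calls of JUN and MAFK were both lost without TCDD replicate 3, and that of MAFK also without TCDD replicate 1 or kynurenine replicate 3 and in DESeq2.

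Stress genes also went both ways. Of 24 tested genes of the integrated stress response 3 were called higher and 7 lower (41.7%, median -0.08). GDF15, a stress hormone, was at 343, 349.99 and 321 CPM with TCDD and at 236, 239.7 and 238 CPM with kynurenine (1.42-fold, edgeR adjusted p = 1.2e-13). PPP1R15A, which restores translation, was 1.40-fold higher, and DDIT4, an inhibitor of mTORC1, 1.37-fold higher. The 7 lower genes, among them PHGDH, TRIB3, CEBPB and ASNS, are amino acid synthesis and ATF4-response genes with log2 fold changes of -0.18, -0.19, -0.27 and -0.12. The ASNS call held with kynurenine replicate 3 left out and was lost with any other library left out and in DESeq2, and that of CEBPB was lost without TCDD replicate 3. Without TCDD replicate 3 the lower ones were 2, while the 3 higher stood in every fit run. Of 26 tested heat shock genes 1 was called (3.85%, median -0.03). This was HSPB1, 1.09-fold lower. The call was lost without TCDD replicate 1 or 3 or kynurenine replicate 1, and with GC and length trends removed, where the log2 fold change went from -0.13 to -0.05.

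The glucose carrier SLC2A1 was at 727, 715 and 685 CPM with TCDD and at 547, 572 and 580.2 CPM with kynurenine (1.25-fold higher, edgeR adjusted p = 9.4e-09). Its DMSO mean was 686 CPM, which was nearer to the TCDD mean of 709 CPM than to the kynurenine mean of 566 CPM. Of 31 tested glycolysis and HIF target genes 3 were called higher and 5 lower (25.8%, median -0.08). HIF1A was 1.13-fold higher, while the glycolytic enzymes GPI and ALDOA were 1.11-fold and 1.10-fold lower. Both lost their calls without TCDD replicate 3, and GPI also without TCDD replicate 2.

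**Figure D4:**
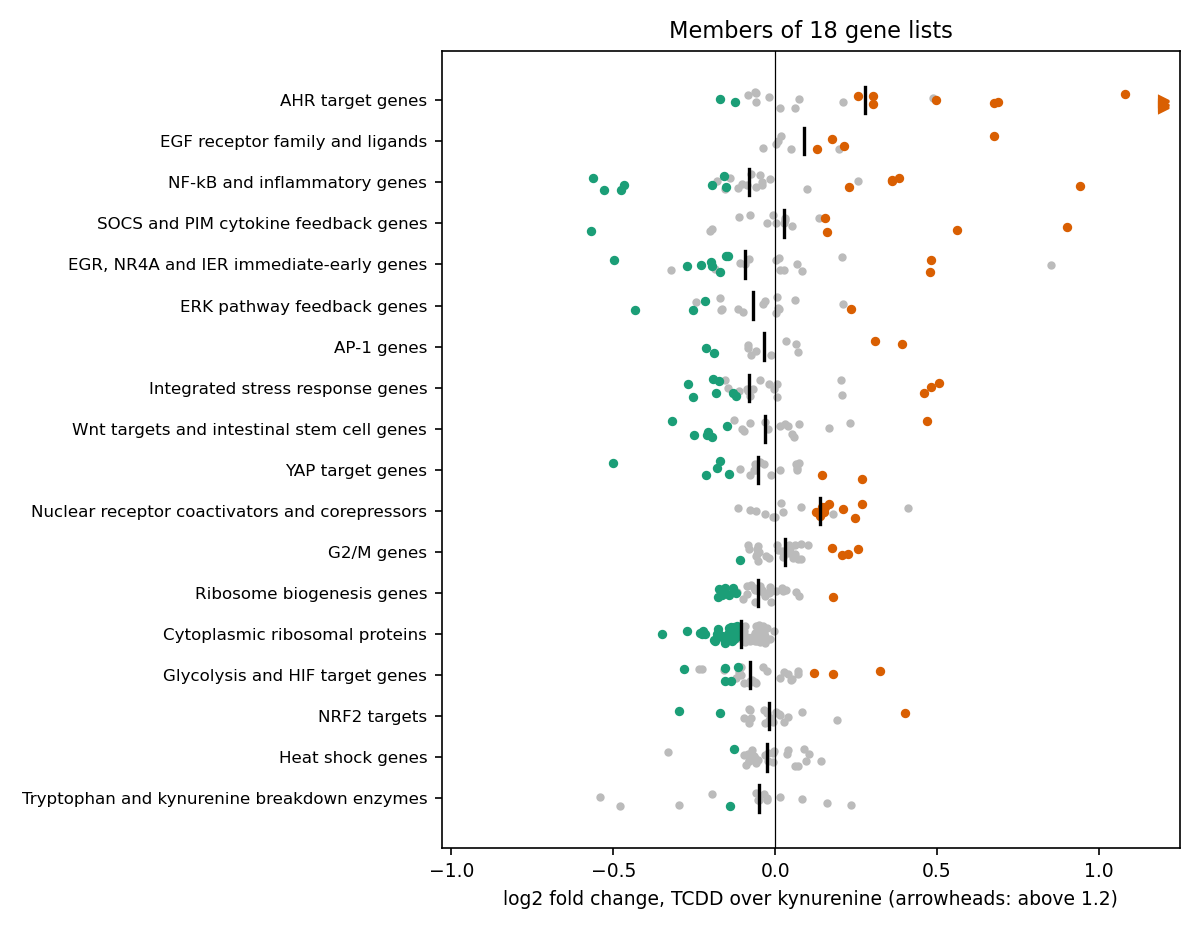
Log2 fold change of TCDD over kynurenine (horizontal) for the tested members of 18 gene lists (vertical). Each point is 1 gene, orange or green if called higher or lower with TCDD and grey if not called, and the black bar is the list's median. AHR targets reach farthest to the right, with a median of 0.28, and ribosomal protein genes are narrow, with a median of -0.11.

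The called ribosomal protein genes were all lower, in a narrow band. Of 79 tested 35 were called lower and 0 higher with TCDD (44.3%), and all 79 fitted values were negative, with a median of -0.11. RPLP2, a stalk protein of the large subunit, was at 675, 704 and 662 CPM with TCDD and at 919, 757 and 786 CPM with kynurenine (1.21-fold lower, edgeR adjusted p = 2.9e-05). The highest value was that of kynurenine replicate 1. The called genes were 16 without kynurenine replicate 1 (median -0.06) and 9 without TCDD replicate 3, and 34 with GC and length trends removed. These genes have many processed copies in the genome, and the share of reads aligned to several places differed between the groups. Its part in this result was not tested. Of 34 tested ribosome biogenesis genes 7 were called lower and 1 higher (23.5%, median -0.05), and without TCDD replicate 3 there were 0 of either.

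Coactivators were called in 1 direction. Of 21 tested nuclear receptor coactivators and corepressors 9 were called higher and 0 lower (42.9%, median log2 fold change 0.14). NCOA6 lost its call without TCDD replicate 1 or 3, and the median was 0.09 without kynurenine replicate 1. The called genes included the acetyltransferase EP300 (1.205-fold, edgeR adjusted p = 8.6e-05), its relative CREBBP, NCOA7, NCOA6 and TRIP11. CREBBP lost its call without TCDD replicate 1 or 3 or kynurenine replicate 1 or 3. With GC and length trends removed 2 were called higher, with CREBBP, NCOA6 and TRIP11 not among them, and the median was 0.07, and without kynurenine replicate 1 or TCDD replicate 3 the count was 4 or 3. Among G2/M genes 4 of 31 were called higher (MKI67, CENPF, CENPE and ASPM) and CDC20 lower (16.1%, median 0.03). The CDC20 call held with kynurenine replicate 2 left out and was lost with any other library left out. MKI67, the proliferation antigen, averaged 813 and 682 CPM (1.19-fold), with 609.5 CPM in kynurenine replicate 1 against 719 and 716 CPM in the others. With GC and length trends removed 2 G2/M genes were called higher, and CENPE and ASPM lost their calls without TCDD replicate 3 or kynurenine replicate 1, ASPM also without TCDD replicate 2. MKI67 and ASPM were not called in DESeq2.

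RNAs kept in the nucleus or lacking a poly(A) tail were in part higher. Poly(A) RNA was sequenced, so reads of RNAs without a tail depend on what passed that selection in each library. They need not follow the level in the cells. Whether the selection differed between the libraries was not tested. Of 22 tested 4 were called higher and 2 lower (27.3%, median 0.02). MALAT1, a nuclear speckle RNA, was at 186, 242 and 196 CPM with TCDD and at 151, 162 and 159.96 CPM with kynurenine (1.32-fold, edgeR adjusted p = 7.0e-07). RN7SK, which restrains transcription elongation, was at 7.07, 10.9 and 8.65 CPM and at 2.86, 6.03 and 5.05 CPM (1.91-fold, adjusted p = 2.2e-05), and was not called in DESeq2. KCNQ1OT1 and RMRP rose 1.55-fold and 1.44-fold, but the KCNQ1OT1 call was lost without TCDD replicate 3 and with GC and length trends removed, and the RMRP groups overlapped. The RMRP call was lost without TCDD replicate 2 or kynurenine replicate 1 and in DESeq2. The lower ones were RN7SL2 and SNHG6. SNHG6 is a host gene of a small nucleolar RNA, and whether either description of the list fits its own RNA was not measured. RN7SL2 and SNHG6 both lost their calls without TCDD replicate 1 or 3 or kynurenine replicate 1, SNHG6 also without kynurenine replicate 3, and in DESeq2. Of 28 tested histone genes that depend on replication, whose transcripts lack a poly(A) tail, 3 were called higher and 0 lower (10.7%, median log2 fold change 0.31). They were HIST2H2BF, HIST1H4E and HIST1H4C, and the calls of the last 2 were lost without TCDD replicate 2 or 3 or kynurenine replicate 1. That of HIST1H4E was also lost without TCDD replicate 1, and that of HIST1H4C without kynurenine replicate 3 and in DESeq2. Among members with at least 5 CPM in 3 libraries the median was -0.0073.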

How the data were processed

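Raw counts of reads per gene symbol were deposited by the authors for 12 libraries, and per the submitters' processing notes reads were trimmed with Trim Galore, aligned to hg38 with STAR 2.7.2b, sorted with SAMtools 1.9 and counted with HTSeq. The protocol text names another STAR version, and the strand setting is not given in the sources used here. The summary counters that follow the gene rows were left out of totals and tests.

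The 6 libraries were fitted without a block in R 4.3.3 with edgeR 4.0.16 (limma 3.58.1), glmQLFit and glmQLFTest, with trimmed-mean (TMM) factors from all 12 libraries and filterByExpr at a minimum count of 10. P-values were adjusted by Benjamini-Hochberg over 13222 genes, and a gene was called at an adjusted p under 0.05. CPM scale each count by the library total times its factor. The biological coefficient of variation was 3.26%. The labels give no pairing, so the replicate numbers were not used as pairs. Same-numbered libraries also did not deviate together (correlations of 0.019, -0.040 and -0.029). In simulated counts the fit called 46, 68, 94 and 96% of genes planted at log2 changes of 0.2, 0.4, 0.8 and 1.6, and 15 of 12917 unchanged genes. These 15 stood beside 152 planted genes called with the right sign, so the false share of the calls was above 0.05. Fewer genes were planted than were called in the data, so these rates need not hold there.

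Named were the 15 called genes with the largest rise and the 15 with the largest fall, without overlap and at a mean of at least 1 CPM, with short noncoding RNAs left out. Further named were AHR, ARNT, NQO1, SLC7A5, MYC, the CYP1 genes, AHRR and TIPARP, and up to 4 members of each list by p. List members beyond these were named after their values were seen. The comparison, lists and rules were chosen with earlier results of these data known. Lists are described by counts and medians, to be read against the 9.67% called and the median of -0.005 over all genes. Gene coordinates, and the length and GC content of the longest transcript, are from GENCODE 44 on hg38, by symbol (23161 of 26485 matched). Alternatives were DESeq2 1.42.0, other scalings and filters, a fit on all 12 libraries, a replicate block, GC and length trends removed, and each library left out. Some genes are not reported here.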

Additional observations from a re-analysis of the deposited data

How the results depend on the processing

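No called direction reversed under any alternative run, and 0 of the genes called under both the reported and another setting changed sign. Of 126 named genes called, 83 kept the call with each library left out in turn and 78 in every alternative that gave them an adjusted p. Leaving out 1 library gave 556 to 1305 called genes, 337 to 680 higher and 219 to 625 lower with TCDD, with the lowest counts without TCDD replicate 3 and 843 without TCDD replicate 1. DESeq2 called 810 genes, 803 of them shared, with 445 higher and 365 lower. Library totals alone gave 419 lower and 706 higher. The cause of these shifts was not tested. With the replicate block 1269 genes were called (665 higher, 604 lower, 1198 shared), and since the libraries share only a number, this is no test of pairing. The replicate block with GC and length trends removed gave 417 higher and 631 lower. List medians moved by more than their spread in 52 of 590 list and setting pairs. In the simulation 46% of genes planted at a log2 change of 0.2 were called. There 12917 of 13115 genes were unchanged, a smaller changed share than the 9.67% called in the data. The rate at which small differences were missed in these data is therefore not known from it.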

Other observations

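Other gene lists are read against the 9.67% called and the median log2 fold change of -0.005 over all genes. Of 22 tested enzymes of foreign-compound metabolism 3 were called higher with TCDD, the CYP1 genes, and 2 lower, the retinoic acid hydroxylase CYP26B1 (1.196-fold) and CYP2S1 (22.7%, median -0.05). The CYP26B1 call was lost without replicate 1 of either group, TCDD replicate 3 or kynurenine replicate 2, and in DESeq2. In the BCL2 family BMF was the 1 gene called higher of 19 tested, while the survival gene BCL2L1 (1.18-fold), BOK (1.19-fold) and PMAIP1 (1.14-fold) were called lower, PMAIP1 not without TCDD replicate 3 (21.1%, median -0.03). Of 20 tested YAP targets 2 were called higher and 5 lower (35%, median -0.05), with AJUBA 1.203-fold higher and the secreted factor CTGF 1.16-fold lower. Of 20 genes of the ID and TGF-beta feedback list BMP4 was called higher (1.14-fold), and PMEPA1 (1.33-fold) and BAMBI (1.12-fold) lower (15%, median -0.09). The BAMBI call was lost without TCDD replicate 1 or 3 or kynurenine replicate 2 or 3, and in DESeq2.

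In the MYC network list 3 of 19 tested were called higher and 1 lower (21.1%, median 0.02). MGA, a repressor that pairs with MAX, was 1.24-fold higher and ARRDC4, a glucose-response gene, 1.23-fold higher, and MLXIPL was called at 2.74 and 1.83 CPM, a call that held with kynurenine replicate 2 left out and was lost with any other library left out. Of 33 G1/S and replication genes, CDT1 (1.17-fold) and TYMS (1.15-fold) were called lower and POLE (1.10-fold) higher. That is 9.09% (median -0.05), near the share of all genes. TYMS lost its call without TCDD replicate 3 or kynurenine replicate 1, and POLE lost it with any library but TCDD replicate 1 left out, in DESeq2 and with GC and length trends removed. Of 20 clock genes RORA (1.16-fold) was called higher, a call lost with GC and length trends removed, and DBP (1.19-fold) lower, a call that held without TCDD replicate 1 but not with any other library left out, nor in DESeq2. That is 10% (median 0.02), near the share of all genes. Among 28 cholesterol synthesis genes SC5D was called higher, and those called lower included FDFT1 and EBP (14.3%, median -0.06). These differences were within 1.10-fold, and without TCDD replicate 3 there were 0 of either, while without kynurenine replicate 1 there were 7 called lower and 0 higher. SC5D and EBP were not called in DESeq2 or with GC and length trends removed. Of 23 interferon-stimulated genes OAS2 and IRF9 (1.34-fold) were called higher, IRF9 not without TCDD replicate 1 or 2 or kynurenine replicate 1 or 3, nor in DESeq2. That is 8.70% (median 0.01), near the share of all genes.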
